A study of Rattus norvegicus with 5 samples.

Results

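The cell cycle and proliferation genes form a list of 42 genes, 18 that act in or just before S phase, when DNA is copied, and 24 that act in G2 phase and mitosis. The members were chosen by symbol, and 40 of them were found among the 30017 gene symbols of the series: 17 S genes and 23 G2/M genes. Levels of Ccnb2 and E2f1 were not analysed here. The study profiled single cells of the skin of Sprague-Dawley rats after ionizing radiation, in 5 libraries with 1 library per group: irradiated skin at 7, 14, 28 and 60 d, and control skin. Per the methods of the study, male rats bought at 4 weeks of age received a single dose of 30 Gy from a 6-MeV electron beam on a shaved field of 3 by 4 cm on the buttock, the rest of the body was shielded with lead, and control skin was another piece of skin. The methods describe the tissue at 7, 14 and 28 d, and the 60 d library is known here from its label. How the rat skin was dissociated is not given in the sources used here, since the methods describe digestion and sorting in a section that opens with human skin.

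A cell that enters the cycle first switches on cyclin E and the genes that license and copy DNA. E2F factors drive these genes once the retinoblastoma protein has been phosphorylated. The mitotic genes follow. In resting cells the DREAM complex holds many of them silent through a promoter element called the cell cycle homology region (CHR), often with nearby CCAAT boxes that bind NF-Y, and p53 acts on them through its target Cdkn1a, which encodes the inhibitor p21. In skin, the dividing cells are mainly basal keratinocytes of the epidermis and the matrix and outer sheath cells of growing hair follicles, while differentiated suprabasal keratinocytes have left the cycle.

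The promoters of the list carried both kinds of element. A RefSeq promoter (build GRCr8, 250 bases before to 50 after the start) was matched for 33 of the 42 members, 13 S and 20 G2/M genes. The CHR letters TTTGAA or TTCGAA, searched on both strands, were found in 14 of 20 G2/M promoters and in 4 of 13 S promoters, against 19.5% of all 27457 promoters in the table. CCAAT was found in 85.0% of the G2/M and 61.5% of the S promoters, against 37.7% of all. E2F letters (TTTCCCGC, TTTGGCGC, TTTCGCGC or TTTGCCGC) showed the opposite split, with 1 of 20 G2/M promoters and 8 of 13 S promoters, against 2.25% of all promoters. These matches are a description of letters in a window and do not show a bound site. The sequences of members that carry the keratinocyte results below are printed for 3 G2/M genes, Mki67, Cdc20 and Hmgb2, for 3 S genes, Mcm5, Mcm6 and Ung, and for the S gene Tk1, which differed from the other S genes in level. Each line gives 150 bases 5′ to 3′, and capitals mark CHR, CCAAT and E2F letters on either strand. Some matches overlap or touch, as a CHR and a reverse CCAAT match do in Mki67 and a pair of E2F matches does in Mcm6.
Mki67, chr1:199952594-199952743, minus strand: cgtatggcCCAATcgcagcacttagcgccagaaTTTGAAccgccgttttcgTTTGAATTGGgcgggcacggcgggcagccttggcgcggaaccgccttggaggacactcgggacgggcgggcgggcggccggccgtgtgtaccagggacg
Cdc20, chr5:137255800-137255949, minus strand: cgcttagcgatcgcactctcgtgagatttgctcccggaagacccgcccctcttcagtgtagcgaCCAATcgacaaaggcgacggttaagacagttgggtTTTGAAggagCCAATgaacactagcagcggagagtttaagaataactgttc
Hmgb2, chr16:37723951-37724100, minus strand: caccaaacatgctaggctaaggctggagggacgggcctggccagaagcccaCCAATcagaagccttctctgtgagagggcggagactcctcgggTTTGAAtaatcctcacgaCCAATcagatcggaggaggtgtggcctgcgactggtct
Mcm5, chr19:13488663-13488812, plus strand: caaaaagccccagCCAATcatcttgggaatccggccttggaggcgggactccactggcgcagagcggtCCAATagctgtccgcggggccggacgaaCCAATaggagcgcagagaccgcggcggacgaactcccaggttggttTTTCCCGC
Mcm6, chr13:42404353-42404502, minus strand: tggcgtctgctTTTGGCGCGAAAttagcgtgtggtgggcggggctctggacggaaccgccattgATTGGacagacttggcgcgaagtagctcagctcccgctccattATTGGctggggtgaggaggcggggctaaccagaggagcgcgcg
Ung, chr12:48154046-48154195, minus strand: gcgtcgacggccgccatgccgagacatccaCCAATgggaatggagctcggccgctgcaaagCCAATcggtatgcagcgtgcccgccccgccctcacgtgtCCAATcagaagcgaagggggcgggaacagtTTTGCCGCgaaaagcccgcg
Tk1, chr10:103544778-103544927, minus strand: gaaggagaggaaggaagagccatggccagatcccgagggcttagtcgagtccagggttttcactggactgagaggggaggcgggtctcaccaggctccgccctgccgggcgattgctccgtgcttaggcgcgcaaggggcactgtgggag

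In Mki67, Cdc20 and Hmgb2 a CHR match stands near a CCAAT match. In Mcm5, Mcm6 and Ung CCAAT matches accompany an E2F match. None of the searched letters is in the printed window of Tk1.

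The libraries held 70073362 to 139566348 unique molecular identifiers (UMIs, 1 per captured RNA molecule). After filters on depth, mitochondrial share and doublets, 42574 of 49507 barcodes were kept, and pairs of libraries shared 11 to 41 barcode sequences. Cells were assigned to classes by marker genes. Krt5 had a UMI in 98.5 to 99.8% of barcodes gated as keratinocytes and Col1a1 in 97.4% or more of those gated as fibroblasts, whereas Cd3e had one in 54.0 to 79.3% of those gated as T and NK cells. A level is given as CPM, the UMIs of a gene or list per 1000000 UMIs of all barcodes of the class in 1 library. UMIs are counted from the 3' end of transcripts and do not scale with gene length. With 1 library per group there was no test between groups. Intervals are exact 95% Poisson or binomial intervals, and the limit given beside a count of 0 is 3 counts of the total. Both cover counting error only. Radiation cannot be told apart from the animal, its age, the phase of its hair cycle, the dissociation or the library, and all irradiated libraries share the 1 control library.

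In keratinocytes the summed level of the 40 members was lower in every irradiated library than in control. It was 1791 CPM in the control library and 1295, 1518, 1202 and 1516 CPM at 7, 14, 28 and 60 d, over 4818 control barcodes and 1815, 2069, 4477 and 6460 irradiated ones. The lowest ratio was at 28 d (log2 ratio -0.58, 95% interval -0.59 to -0.56) and the 7 d ratio was close to it (log2 ratio -0.47, 95% interval -0.49 to -0.45). With each barcode thinned to 2000 UMIs, the 14 d ratio turned to 0.031 on the log2 scale. Hmgb2 and Pcna carried most of this difference. Together they made up 53.1% of the list's UMIs in control keratinocytes, and without them the total was 839.5 CPM in the control library and 757, 908, 771 and 955 CPM at 7, 14, 28 and 60 d. On that count the irradiated libraries lay on both sides of control (log2 ratio -0.15, 95% interval -0.17 to -0.13 at 7 d, and log2 ratio 0.19, 95% interval 0.17 to 0.20 at 60 d). Taken across the whole table, for genes that reached 20 UMIs when both libraries were added, the median log2 ratio was 0.11, -0.55, -0.27 and -0.24 at 7, 14, 28 and 60 d.

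Hmgb2 encodes a chromatin protein that is abundant in dividing cells, and Pcna the sliding clamp of DNA polymerase, which is also used in DNA repair. Hmgb2 was at 769 CPM in the control library and 379, 552, 337 and 442 CPM at 7, 14, 28 and 60 d, so that every irradiated library was below control. Pcna was at 182 CPM in the control library and 158, 57.9, 94.4 and 120.3 CPM at 7, 14, 28 and 60 d, and it was lowest at 14 d (log2 ratio -1.66, 95% interval -1.71 to -1.60). The lower Hmgb2 level held in barcodes on both sides of the cycling call, which asks for at least 2 UMIs of Mki67 and Top2a together. In cycling keratinocytes Hmgb2 was at 2517 CPM in control and 1419, 1262, 884 and 1551 CPM at 7, 14, 28 and 60 d. In keratinocytes with no UMI of either gene it was at 253 CPM in control and 133, 148, 102 and 108 CPM at the same times. Hmgb2 was thus lower in both states at all 4 times, in these libraries.

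The S and G2/M genes separated at 7 d. Without Pcna, the S genes summed to 179.8 CPM in the control library and 239, 199.9, 195 and 262 CPM at 7, 14, 28 and 60 d, above control at all 4 times. Without Hmgb2, the G2/M genes summed to 659.7 CPM in the control library and 517, 708, 576 and 692 CPM at 7, 14, 28 and 60 d. At 7 d the S total was higher than control (log2 ratio 0.41, 95% interval 0.37 to 0.46) and the G2/M total lower (log2 ratio -0.35, 95% interval -0.38 to -0.32). The median member showed the same split: the median log2 ratio of the S genes was 0.65, 0.07, 0.10 and 0.51 at 7, 14, 28 and 60 d, and that of the G2/M genes -0.38, 0.05, -0.19 and 0.06. At 14 d both medians stood above that of all genes, -0.55. The ratio of S to G2/M UMIs, again without Pcna and Hmgb2, was 0.272 in control (95% interval 0.267 to 0.278) and 0.462 (0.449 to 0.476), 0.282 (0.276 to 0.288), 0.339 (0.332 to 0.345) and 0.379 (0.374 to 0.383) at 7, 14, 28 and 60 d. With both genes in, the 14 d ratio was below control, at 0.204 against 0.253.

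**Figure D1:**
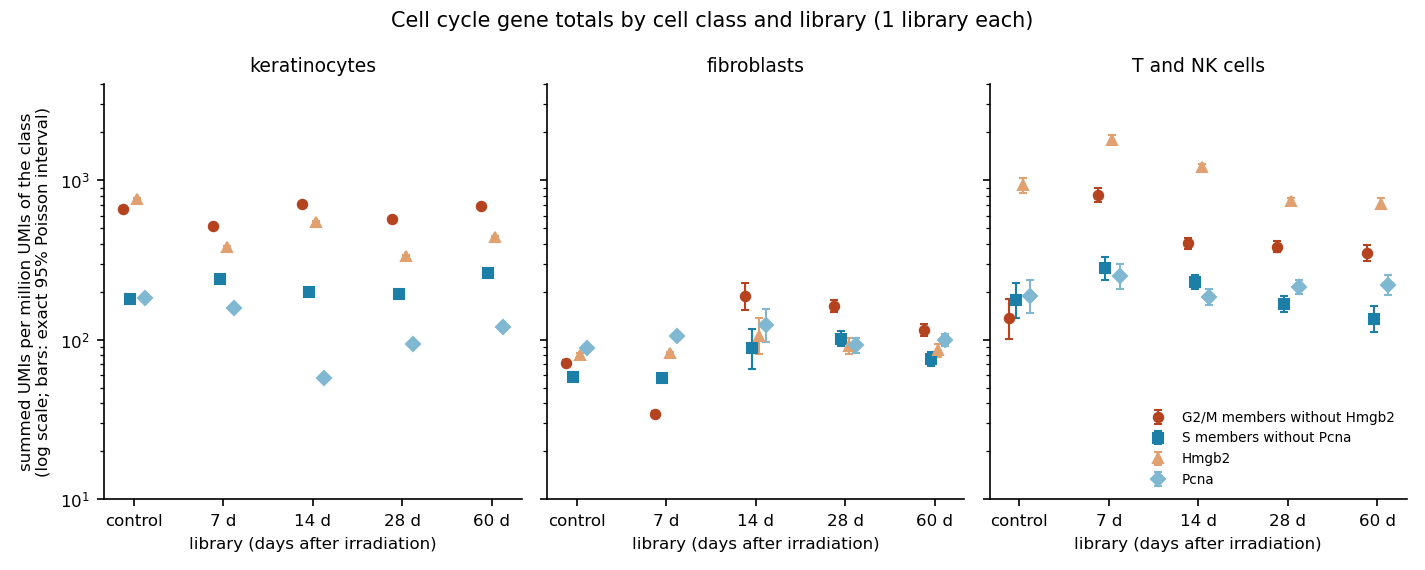
Summed CPM (log axis) of 4 sets of members in keratinocytes, fibroblasts and T and NK cells, with control at the left and 7, 14, 28 and 60 d after it; bars are exact 95% Poisson intervals. In keratinocytes the G2/M total without Hmgb2 was 517 CPM at 7 d and 659.7 CPM in control, and in fibroblasts it was 34.2 CPM at 7 d and 71.4 CPM in control.

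Counted gene by gene, few members passed 2-fold in keratinocytes. At 7 d, 2 members were at least 2-fold higher, Mcm5 and Rrm2, beside 8.78% of all genes with enough UMIs, and 3 were at least 2-fold lower, Hmgb2, Kif11 and Tk1, beside 6.88% of all. At 14 d, 4 were higher (Ccnb1, Ccne1, Gins2 and Rrm2; background 7.45%) and 2 lower (Cdt1 and Pcna; background 35.5%). At 28 d none was higher (6.36%) and Hmgb2 was lower (19.9%). At 60 d no member passed in either direction, beside 3.87% of all genes higher and 19.8% lower. The members' shares, 5.0% and 7.5% at 7 d, were near those backgrounds, and at 14, 28 and 60 d a smaller share of members than of all genes was lower.

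Among the S genes, the helicase subunits Mcm2 to Mcm7, which are loaded on DNA before replication and unwind it, had a sum of 87.1 CPM in the control library and 124, 91.0, 96.7 and 130.3 CPM at 7, 14, 28 and 60 d. The sum was above control at all 4 times, by little at 14 d, and the subunits did not all share its direction. Mcm5 was at 8.19 CPM in the control library and 17.4, 15.3, 11.2 and 14.5 CPM at 7, 14, 28 and 60 d (log2 ratio 1.09, 95% interval 0.91 to 1.27 at 7 d). Mcm6 was at 16.4 CPM in the control library and 22.3, 17.5, 17.6 and 25.4 CPM at 7, 14, 28 and 60 d, and Mcm3 at 14.8 CPM in the control library and 23.2, 17.1, 16.0 and 23.4 CPM at 7, 14, 28 and 60 d. Mcm3, Mcm5 and Mcm6 were above control in each irradiated library.

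Mcm7 was at 18.5 CPM in the control library and 22.2, 17.2, 19.1 and 24.4 CPM at 7, 14, 28 and 60 d, and Mcm2 at 11.2 CPM in the control library and 17.7, 11.8, 15.6 and 18.4 CPM at 7, 14, 28 and 60 d. Mcm4 was at 18.0 CPM in the control library and 20.9, 12.1, 17.2 and 24.1 CPM at 7, 14, 28 and 60 d (log2 ratio -0.57, 95% interval -0.71 to -0.43 at 14 d). Mcm4 and Mcm7 thus lay below control at 14 d, and the 28 d interval of Mcm4 included no difference. Gins2, a subunit of the GINS complex that joins the helicase, was at 6.62 CPM in the control library and 11.0, 13.9, 9.75 and 11.5 CPM at 7, 14, 28 and 60 d. Cdt1, which loads the helicase and is destroyed once replication starts, was at 5.50 CPM in the control library and 5.30, 2.56, 3.01 and 4.85 CPM at 7, 14, 28 and 60 d and was lowest at 14 d (log2 ratio -1.11, 95% interval -1.40 to -0.82).

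Genes for the supply of nucleotides did not share a direction. Rrm2, the cell cycle regulated subunit of ribonucleotide reductase, was at 7.16 CPM in the control library and 17.2, 15.1, 7.29 and 10.2 CPM at 7, 14, 28 and 60 d, which made it the highest ratio of the list at 7 d (log2 ratio 1.26, 95% interval 1.07 to 1.45). Its partner Rrm1 was at 34.1 CPM in the control library and 33.5, 33.6, 38.3 and 52.3 CPM at 7, 14, 28 and 60 d. Tk1, a thymidine kinase of the salvage pathway, was at 13.2 CPM in the control library and 5.30, 14.9, 11.0 and 12.1 CPM at 7, 14, 28 and 60 d and had the lowest ratio of the list at 7 d (log2 ratio -1.32, 95% interval -1.58 to -1.07). Rrm2 and Tk1 therefore lay at opposite ends of the list at 7 d. Ung, which removes uracil from DNA, was at 9.83 CPM in the control library and 16.9, 9.10, 11.0 and 19.4 CPM at 7, 14, 28 and 60 d. Ccne1, the cyclin that opens S phase, was at 5.60 CPM in the control library and 9.53, 11.8, 8.46 and 7.30 CPM at 7, 14, 28 and 60 d, above control in every irradiated library.

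Among the G2/M genes, Mki67, which coats mitotic chromosomes and is the usual marker of dividing cells, was at 84.6 CPM in the control library and 51.4, 49.0, 79.4 and 87.4 CPM at 7, 14, 28 and 60 d. Top2a, the topoisomerase that untangles sister DNA, was at 48.4 CPM in the control library and 36.7, 44.1, 46.3 and 55.1 CPM at 7, 14, 28 and 60 d. Both were below control at 7 and 14 d and close to or above it at 60 d. Cenpf, a kinetochore protein, was at 74.2 CPM in the control library and 55.5, 50.2, 61.8 and 67.3 CPM at 7, 14, 28 and 60 d. Kif11, the motor that separates the spindle poles, was at 22.1 CPM in the control library and 10.4, 11.1, 14.4 and 15.5 CPM at 7, 14, 28 and 60 d, with all 4 irradiated libraries below control. Aurka, a spindle pole kinase, was at 13.3 CPM in the control library and 10.3, 11.8, 7.31 and 8.40 CPM at 7, 14, 28 and 60 d.

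The G2/M genes did not share a direction at 14 d, where their median log2 ratio was 0.05. The 5 given next were chosen because they were above control. Ccnb1, the cyclin that drives entry into mitosis, was at 22.5 CPM in the control library and 21.1, 59.4, 28.5 and 24.5 CPM at 7, 14, 28 and 60 d (log2 ratio 1.40, 95% interval 1.31 to 1.49 at 14 d). Ube2c, the ubiquitin-conjugating enzyme of the anaphase-promoting complex, was at 51.6 CPM in the control library and 50.6, 84.7, 43.5 and 64.2 CPM at 7, 14, 28 and 60 d, and Cdc20, the activator of that complex, was at 27.9 CPM in the control library and 24.8, 48.2, 25.7 and 31.6 CPM at 7, 14, 28 and 60 d. Each of these was highest in the 14 d library. Birc5 (survivin), of the chromosomal passenger complex, was at 34.5 CPM in the control library and 23.7, 55.3, 30.4 and 36.0 CPM at 7, 14, 28 and 60 d, and the mitotic kinase Plk1 was at 9.88 CPM in the control library and 9.15, 18.9, 9.96 and 12.2 CPM at 7, 14, 28 and 60 d. Mki67, Cenpf, Kif11 and Aurka in the same library were below control. Keratinocytes of the 14 d library were also the deepest, with a median of 24705 UMIs per barcode, against 10730 in control and 11430 to 15585 at the other times. The part of depth in these levels was not tested.

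Split by compartment, the lower G2/M level at 7 d was seen in the barcodes called basal. Barcodes were placed in basal, suprabasal, hair follicle and wound compartments by marker genes, with 10.0% of keratinocytes near a cut. The wound cut used S100a8 and S100a9, and hair follicle barcodes needed at least 2 UMIs of their markers. Basal was the call for what remained, where Krt1, Krt10 and Krtdap together did not exceed Krt5, Krt14 and Krt15. The part of depth in these calls was not tested. Hair follicle barcodes made up 61.6% of control keratinocytes. At 14 d wound barcodes made up 71.7% and basal ones 21.4%. The compartments are thus marker calls and not sites seen in the tissue. Basal barcodes numbered 1498 in control and 537, 443, 1804 and 3512 at 7, 14, 28 and 60 d. In them the G2/M genes without Hmgb2 summed to 1149.9 CPM in the control library and 531, 1164, 1015 and 971 CPM at 7, 14, 28 and 60 d (log2 ratio -1.11, 95% interval -1.16 to -1.07 at 7 d). The S genes without Pcna summed to 216 CPM in the control library and 291, 363, 287 and 335 CPM at 7, 14, 28 and 60 d (log2 ratio 0.43, 95% interval 0.35 to 0.50 at 7 d). The S to G2/M ratio of the basal cells was 0.188 in control and 0.547, 0.312, 0.283 and 0.344 at 7, 14, 28 and 60 d.

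At 7 d all 23 G2/M members were lower in basal cells than in control, 17 of them at least 2-fold, while 14 of 17 S members were higher and 3 lower. Over both phases 18 members were at least 2-fold lower, beside 7.02% of all genes, and 2 were at least 2-fold higher, Ccne1 and Ung, beside 13.4% of all. The 18 were Birc5, Bub1, Bub1b, Ccna2, Cdc20, Cdca8, Cenpe, Cenpf, Hmgb2, Kif11, Kif23, Mki67, Nusap1, Plk1, Tpx2, Top2a, Ube2c and the S gene Tk1. The median log2 ratio was -1.06 over the G2/M members and 0.69 over the S members, against 0.19 over all genes.

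Basal Mki67 was at 143 CPM in the control library and 56.2, 91.9, 142 and 122 CPM at 7, 14, 28 and 60 d (log2 ratio -1.34, 95% interval -1.49 to -1.200 at 7 d), and Top2a at 85.0 CPM in the control library and 40.7, 73.2, 82.3 and 79.4 CPM at 7, 14, 28 and 60 d. Cenpf was at 130.0 CPM in the control library and 42.7, 103, 115 and 93.2 CPM at 7, 14, 28 and 60 d, and Hmgb2 at 1208 CPM in the control library and 402, 1037, 561 and 589.5 CPM at 7, 14, 28 and 60 d. Mki67, Top2a and Cenpf were each lowest at 7 d and nearer to control later, whereas Hmgb2 was lowest at 7 d and remained well under control at 28 and 60 d. Cdk1, the kinase that drives mitosis, was at 61.8 CPM in the control library and 46.1, 65.0, 52.2 and 69.5 CPM at 7, 14, 28 and 60 d, and Ccnb1 at 39.98 CPM in the control library and 23.0, 103, 50.2 and 33.8 CPM at 7, 14, 28 and 60 d. Cdk1 was lower at 7 d by less than 2-fold, and Ccnb1 stood above control at 14 and 28 d.

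On the S side, basal Ccne1 was at 6.58 CPM in the control library and 14.1, 19.5, 11.8 and 9.88 CPM at 7, 14, 28 and 60 d (log2 ratio 1.10, 95% interval 0.73 to 1.47 at 7 d). Ung was at 8.84 CPM in the control library and 18.2, 17.0, 15.0 and 23.2 CPM at 7, 14, 28 and 60 d, and Mcm6 at 16.8 CPM in the control library and 27.0, 35.5, 27.4 and 32.3 CPM at 7, 14, 28 and 60 d. These were above control in every irradiated library. Mcm3 lay just under the 2-fold line at 7 d, with 29.8 CPM at 7 d, against 14.9 CPM in control. Tk1 followed the G2/M genes, at 23.4 CPM in the control library and 7.24, 25.1, 18.9 and 17.9 CPM at 7, 14, 28 and 60 d. Pcna was at 168 CPM in the control library and 155, 91.5, 118 and 141 CPM at 7, 14, 28 and 60 d. At 14 d, 8 members were at least 2-fold higher in basal cells (Ccnb1, Ccne1, Cdc6, Gins2, Mcm2, Mcm3, Mcm5 and Mcm6; background 9.40%) and none was lower (19.0%). At 28 d Hmgb2 alone was lower (11.5%) and none higher (6.78%), and at 60 d Gins2 and Ung were higher (4.94%) and Hmgb2 lower (13.2%).

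**Figure D2:**
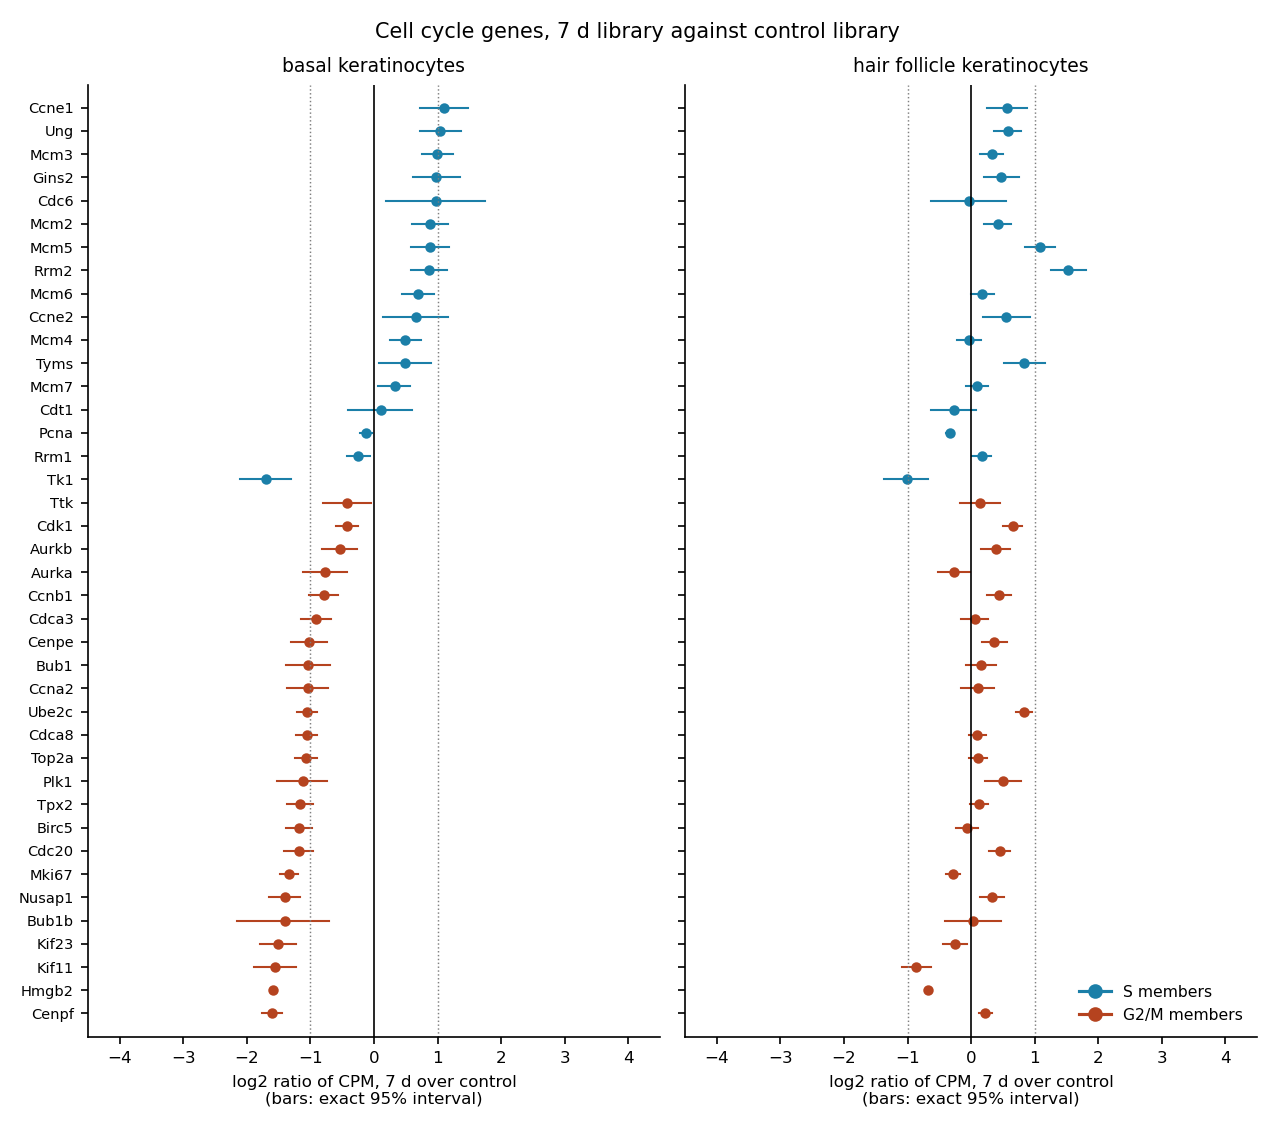
Log2 ratio of the 7 d library to control for each member in basal and in hair follicle keratinocytes; bars are exact 95% intervals for counting error. In basal cells all 23 G2/M members lie left of 0, and in hair follicle cells 17 of 23 lie right of it.

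Hair follicle keratinocytes of the same 7 d library did not show this. Their G2/M genes without Hmgb2 summed to 475 CPM in the control library and 533, 833, 589 and 549 CPM at 7, 14, 28 and 60 d (log2 ratio 0.17, 95% interval 0.13 to 0.20 at 7 d), and 17 of 23 G2/M members were higher at 7 d and 6 lower. Their S genes without Pcna summed to 181 CPM in the control library and 227, 137, 243 and 269 CPM at 7, 14, 28 and 60 d. Both totals were higher than control at 7, 28 and 60 d. Mcm5 and Rrm2 were at least 2-fold higher at 7 d (background 6.54%) and Tk1 lower (8.02%). Rrm2 was at 5.19 CPM in the control library and 15.0, 14.0, 6.98 and 7.88 CPM at 7, 14, 28 and 60 d, and Ube2c at 29.8 CPM in the control library and 53.2, 97.4, 34.8 and 40.5 CPM at 7, 14, 28 and 60 d. Hmgb2, at 619.6 CPM in the control library and 385, 650.1, 410.4 and 412 CPM at 7, 14, 28 and 60 d, was lower at 7, 28 and 60 d in this compartment as well. The difference between the compartments was not tested, with 1 library per group. At 14 d, where the hair follicle values rest on 78 barcodes, 7 members were higher (Bub1b, Ccnb1, Cdc20, Cenpe, Plk1, Rrm2 and Ube2c; 6.31%) and 6 lower (Ccne2, Cdt1, Mcm4, Pcna, Tyms and Ung; 21.9%). At 28 d no member passed (5.52% of all genes higher, 13.4% lower), and at 60 d Ung was higher (4.47%) and none lower (12.9%).

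The keratinocytes of the libraries fell in different clusters, which touches each of these comparisons. Of 7 d keratinocytes 94.4% were in 1 cluster (9), which held 25.9% of control keratinocytes, whereas most others in control were in clusters 5, 7 and 8. The top genes of cluster 9 were led by Krt24, Tgm5 and Grem1 and included Lhx2, one of the hair follicle markers used here. At 14 d 77.8% were in cluster 33, at 28 d 24.1% in cluster 27, and at 60 d 37.1% in cluster 18. Within cluster 9 alone the direction was reversed: the G2/M genes without Hmgb2 were at 541 CPM at 7 d, against 100.4 CPM in control (log2 ratio 2.43), and the S genes without Pcna at 246 against 88.8 CPM. That cluster held 496 of 537 basal barcodes at 7 d and 204 of 1498 in control. Among these the log2 ratio was 2.66 for G2/M and 1.66 for S genes. The basal comparison at 7 d thus sets mostly cluster 9 against mostly other clusters of control. Barcodes of cluster 9 had a median of 11816 UMIs at 7 d, against 5946 in control, and 10.6% of them were cycling at 7 d, against 1.12% in control, whereas 49.9% of cycling control keratinocytes were in cluster 7. In cluster 18, with 72 control keratinocytes of which 37.5% were cycling, the G2/M log2 ratio was -2.50, -1.53 and -1.89 at 14, 28 and 60 d. The clusters were built with the member genes in the table, and the lower G2/M level at 7 d is a value of the whole basal compartment, not of this cluster.

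The share of cycling keratinocytes moved with thinning to 1 depth. It was 14.1% in control (95% interval 13.1 to 15.1%, 677 of 4818) and 10.5% (9.10 to 12.0%), 24.6% (22.8 to 26.5%), 18.6% (17.5 to 19.8%) and 15.9% (15.0 to 16.8%) at 7, 14, 28 and 60 d. After each barcode was thinned to 2000 UMIs, which left out 172 control barcodes and 108, 154, 246 and 72 irradiated ones, the share was 4.63% in control (4.04 to 5.27%) and 3.40% (2.59 to 4.37%), 3.50% (2.72 to 4.42%), 5.53% (4.86 to 6.26%) and 5.48% (4.93 to 6.07%). The 14 d library thus had the highest share before thinning and one below control after it, so no order is read from it. The 7 d share was below control in both counts, and the 28 d share above it in both. As a background, mural cells, which rarely divide in skin, had shares of 0 to 0.589% at median depths of 3555 to 6622 UMIs and of 0 to 0.459% after thinning, and barcodes gated as neutrophils had 0 of 72 in control (which allows up to 4.17%), 0 of 108 at 14 d (up to 2.78%) and 1 of 208 at 28 d. The keratinocyte shares lie above these.

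In basal cells the cycling share was 23.6% in control (21.4 to 25.8%) and 11.9% (9.30 to 15.0%), 35.4% (31.0 to 40.1%), 28.2% (26.1 to 30.4%) and 19.7% (18.4 to 21.1%) at 7, 14, 28 and 60 d. Thinned, it was 8.18% in control and 3.88, 4.68, 10.2 and 7.24% at 7, 14, 28 and 60 d. At 7 d the basal share was below control in both counts. Hair follicle cells had 10.1% in control and 10.1, 12.8, 20.1 and 12.5% at those times, and 3.26% and 3.34, 1.28, 5.03 and 4.21% after thinning, so at 7 d they were level with control. Suprabasal cells, of which there were 33 at 7 d and no share was taken, had 7.04% in control and 7.69, 7.37 and 3.97% at 14, 28 and 60 d. Thinned, these were 1.82% in control and 1.67, 1.29 and 0.754%. Wound type keratinocytes numbered 11 in control and 20 at 7 d, and had shares of 22.7, 10.8 and 21.9% at 14, 28 and 60 d over 1483, 906 and 361 barcodes. At median depths of 27645, 16151 and 26511 UMIs, these wound shares fell to 3.36, 1.38 and 5.06% after thinning.

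**Figure D3:**
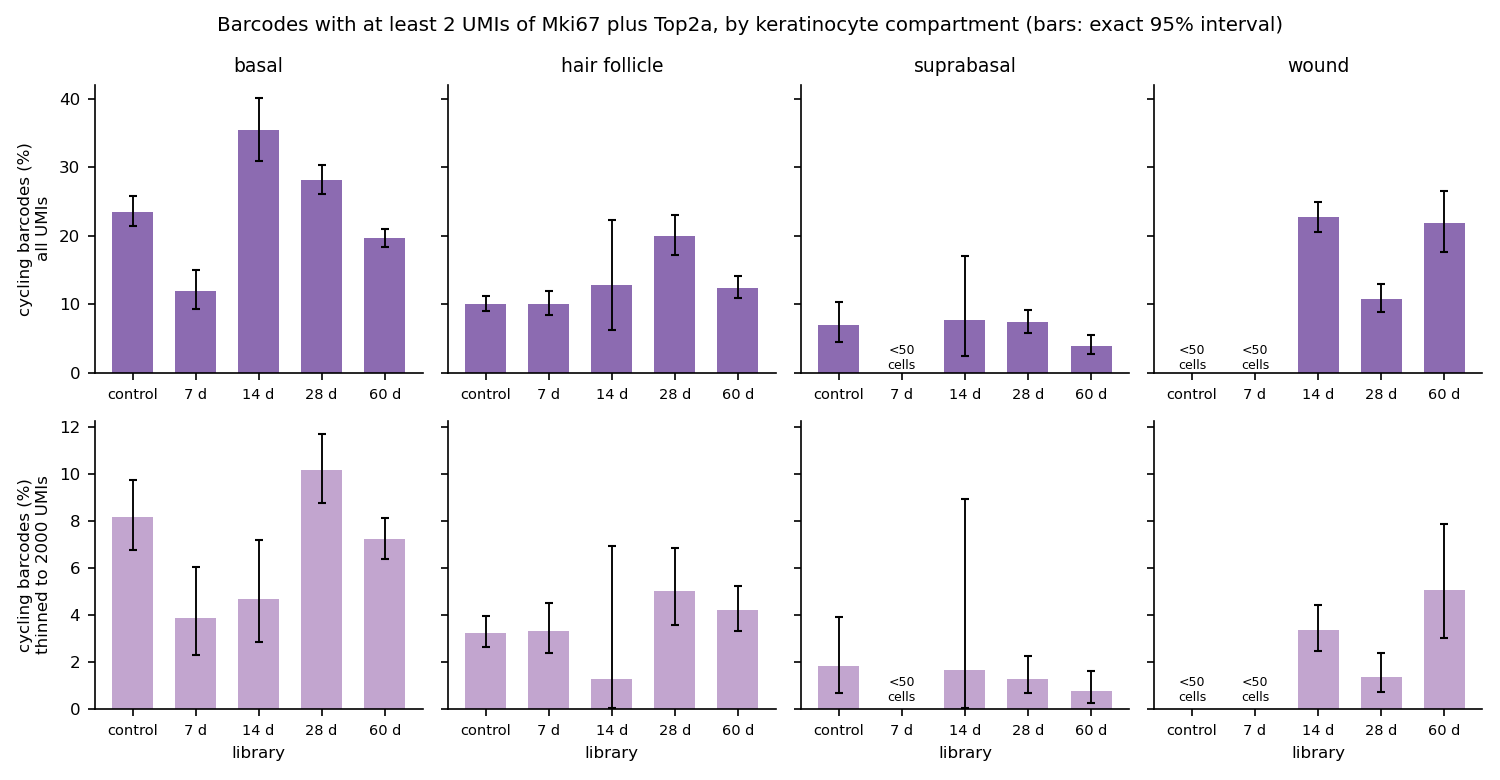
Percent of barcodes with at least 2 UMIs of Mki67 and Top2a together in 4 keratinocyte compartments, before thinning (top) and after thinning to 2000 UMIs (bottom); bars are exact 95% binomial intervals and compartments under 50 cells are marked. The basal share was lower at 7 d than in control in both rows, 11.9% against 23.6% and 3.88% against 8.18%.

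Within the cycling keratinocytes the balance of S to G2/M genes was also highest at 7 d, though by little over 28 and 60 d. With Pcna, Hmgb2, Mki67 and Top2a left out, the ratio of S to G2/M UMIs in cycling barcodes was 0.205 in control and 0.301, 0.237, 0.289 and 0.284 at 7, 14, 28 and 60 d. In these barcodes the S genes were at 438 CPM in control and 623, 372, 400 and 642 CPM, and the G2/M genes at 2136 CPM and 2067, 1566, 1383 and 2258 CPM. In thinned keratinocytes, 2.52% of control barcodes had at least 2 UMIs of S genes and not of G2/M genes, and 5.51, 4.595, 4.37 and 6.12% did at 7, 14, 28 and 60 d. G2/M genes without S genes were seen in 10.4% of control barcodes and in 5.92, 20.4, 12.6 and 8.94% at those times. The S-only share was higher than control in all 4 irradiated libraries and the G2/M-only share lower at 7 and 60 d. Barcodes with at least 2 UMIs of each phase made up 2.84% in control and 3.63, 4.75, 4.07 and 4.45% at 7, 14, 28 and 60 d. They are in neither share, so the G2/M-only share is not that of all barcodes with G2/M genes.

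**Figure D4:**
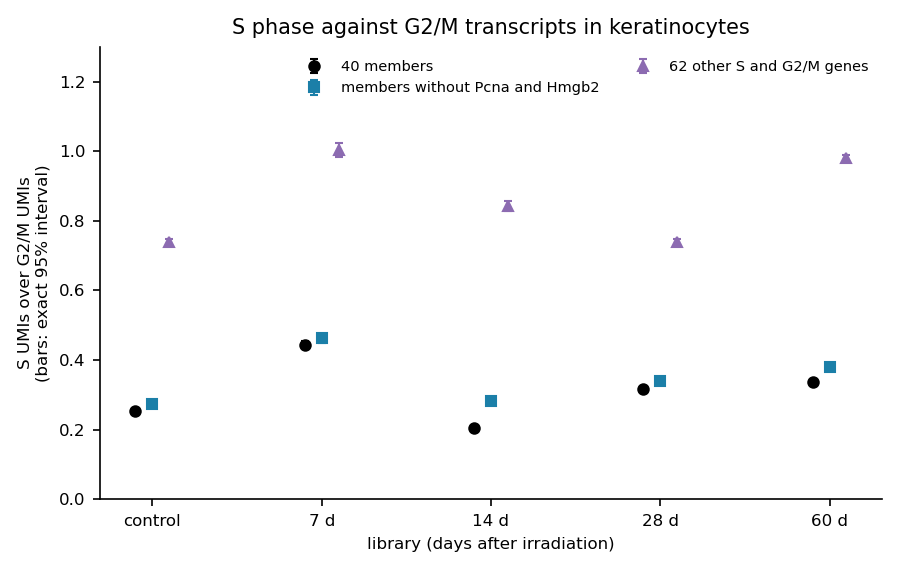
Ratio of S to G2/M UMIs in keratinocytes for all members, for members without Pcna and Hmgb2, and for the other S and other G2/M genes, by library; bars are exact 95% intervals for counting error. All 3 gene sets have their highest ratio at 7 d, at 0.443, 0.462 and 1.004, against 0.253, 0.272 and 0.738 in control.

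Genes of the same phases that are not members also had their highest S to G2/M ratio at 7 d, at 1.004 against 0.738 in control. A list of 30 other S genes (among them Fen1, Prim1 and Cdc45) summed to 693 CPM in the control library and 719.8, 486, 497 and 711 CPM at 7, 14, 28 and 60 d, and a list of 32 other G2/M genes to 938 CPM in the control library and 717, 576, 673 and 725 CPM at 7, 14, 28 and 60 d. At 7 d, 0 of 30 other S genes were at least 2-fold higher and 1 lower, and 2 of 32 other G2/M genes were higher and 1 lower, beside 8.78% of all genes higher and 6.88% lower. The other S total was near control at 7 and 60 d and below it at 14 and 28 d, and the other G2/M total was below control at all 4 times.

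The genes that hold the cycle back or let it start also differed between the libraries. The list of CDK inhibitors summed to 579.6 CPM in the control library and 947, 239, 456 and 296 CPM at 7, 14, 28 and 60 d in keratinocytes, and the G1 cyclins and kinases to 278 CPM in the control library and 586, 183, 213 and 257 CPM at 7, 14, 28 and 60 d. Ccnd1, the D cyclin that starts phosphorylation of the retinoblastoma protein, was at 108 CPM in the control library and 293, 133, 145 and 142 CPM at 7, 14, 28 and 60 d, and Ccnd2 at 91.3 CPM in the control library and 213, 5.87, 31.2 and 63.7 CPM at 7, 14, 28 and 60 d. Both cyclins were at their highest at 7 d, in the library with the lowest G2/M total. Cdkn1b, which encodes p27, was at 82.1 CPM in the control library and 40.03, 17.9, 32.9 and 40.3 CPM at 7, 14, 28 and 60 d, below control throughout. Cdkn1a, within cycling barcodes alone, was at 334 CPM in control and 753, 157, 309 and 156 CPM at 7, 14, 28 and 60 d, and in keratinocytes that were not cycling at 507 CPM and 898, 176, 338 and 190 CPM. The 7 d library thus had the highest level in both states.

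The locus of Cdkn2a and Cdkn2b, which encodes inhibitors of the D cyclin kinases and is linked to senescence, was high late. Counts are per gene and do not tell the transcripts of a gene apart. Cdkn2a had 5 UMIs in all control keratinocytes and 12 at 7 d, and was at 12.0, 35.7 and 31.2 CPM at 14, 28 and 60 d (log2 ratio 8.59, 95% interval 7.37 to 10.21 at 60 d). Cdkn2b was at 7.71 CPM in the control library and 13.2, 19.4, 38.7 and 21.7 CPM at 7, 14, 28 and 60 d. Both were above control at each of the 3 later times. Cdk4, one of the D cyclin kinases, was at 39.9 CPM in the control library and 44.8, 18.4, 5.33 and 19.2 CPM at 7, 14, 28 and 60 d. Of the 3 pocket proteins, 2 were at least 2-fold lower at 14 d beside 35.5% of all genes, and none at the other times, with Rb1 at 8.91 CPM in the control library and 10.7, 3.86, 5.92 and 5.64 CPM at 7, 14, 28 and 60 d. Of 10 p53 targets found, 7 were at least 2-fold higher at 7 d, beside 8.78% of all genes, and 1 was higher and 3 lower at 14 d, beside 7.45% and 35.5% of all genes. The p53 target Ccng1 was at 71.7 CPM in the control library and 259.7, 64.1, 75.3 and 79.8 CPM at 7, 14, 28 and 60 d.

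In fibroblasts the list was low in every library, and the G2/M genes were lower at 7 d. Of the 40 members 37 were under 10 CPM in control, and none was over 100 CPM. The whole list summed to 299 CPM in the control library and 280.0, 506, 449 and 376 CPM at 7, 14, 28 and 60 d, over 3168 control barcodes and 6437, 81, 625 and 631 irradiated ones. Hmgb2 and Pcna made up 56.4% of it in control. Without Hmgb2, the G2/M genes summed to 71.4 CPM in the control library and 34.2, 187, 163 and 115 CPM at 7, 14, 28 and 60 d (log2 ratio -1.06, 95% interval -1.15 to -0.98 at 7 d). Without Pcna, the S genes summed to 58.7 CPM in the control library and 57.9, 88.4, 102 and 75.8 CPM at 7, 14, 28 and 60 d (log2 ratio -0.02, 95% interval -0.10 to 0.06 at 7 d). The G2/M total thus differed at 7 d and the S total did not by more than its counting interval. All-gene medians were 0.13, -0.05, 0.21 and 0.27 at 7, 14, 28 and 60 d.

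At 7 d, 13 of 39 fibroblast members with enough UMIs were at least 2-fold lower, all of them G2/M genes (background 3.33%), and none was higher (7.43%). They were Birc5, Ccna2, Ccnb1, Cdca3, Cdk1, Cenpf, Kif11, Mki67, Nusap1, Top2a, Tpx2, Ttk and Ube2c. Mki67 was at 6.84 CPM in the control library and 2.26, 23.0, 15.7 and 7.64 CPM at 7, 14, 28 and 60 d, and Cdk1 at 4.22 CPM in the control library and 1.24, 14.1, 9.76 and 11.1 CPM at 7, 14, 28 and 60 d. Top2a, at 1.196 CPM at 7 d against 5.39 CPM in control, had the lowest ratio at 7 d (log2 ratio -2.17, 95% interval -2.58 to -1.78). At 14 and 28 d its log2 ratio was 2.56 and 2.30. Both Mki67 and Cdk1 were lowest at 7 d and highest at 14 d. Of 29 other G2/M genes with enough UMIs, 13 were at least 2-fold lower at 7 d as well. Tyms, the thymidylate synthase of S phase, was higher, with 8.94 CPM at 7 d, against 4.92 CPM in control.

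At 14 d, with 81 fibroblasts, 20 of 38 members were at least 2-fold higher (background 14.1%) and 3 lower (8.89%), and these 3, Bub1, Mcm4 and Tyms, rest on 1, 3 and 1 UMIs at 14 d. The higher members also rest on few UMIs. Without Pcna and Hmgb2 the list had 50 S and 106 G2/M UMIs at 14 d. Cenpf, 1 of the higher members, had 7 UMIs in the 2 cycling barcodes and 0 in the 79 with no UMI of Mki67 or Top2a. At 28 d 17 of 38 members were higher (16.3%) and none lower (6.59%). At 60 d 6 of 39 were higher (Cdc20, Cdc6, Cdk1, Nusap1, Plk1 and Ube2c; 16.3%), a share near the background, and none lower (7.71%). Cdc20 was at 2.03 CPM in the control library and 1.89, 12.4, 7.39 and 11.3 CPM at 7, 14, 28 and 60 d, and Ttk, a spindle checkpoint kinase, at 0.667 CPM in the control library and 0.210, 5.30, 2.37 and 1.21 CPM at 7, 14, 28 and 60 d. Ccne1 was at 1.14 CPM in the control library and 1.96, 5.30, 3.55 and 1.21 CPM at 7, 14, 28 and 60 d. Rrm2 was at 0.639 CPM in the control library and 0.420, 1.77, 4.14 and 1.01 CPM at 7, 14, 28 and 60 d, with its highest level at 28 d. Pcna was at 88.7 CPM in the control library and 106, 124, 92.2 and 99.8 CPM at 7, 14, 28 and 60 d, and Hmgb2 at 79.9 CPM in the control library and 82.1, 106, 91.3 and 85.9 CPM at 7, 14, 28 and 60 d, so neither gene was below its control level at any time.

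These fibroblast values rest on few dividing barcodes. Cycling fibroblasts were 26 of 3168 in control (0.821%), 17 of 6437 at 7 d (0.264%), 2 of 81 at 14 d (2.47%), 11 of 625 at 28 d (1.76%) and 3 of 631 at 60 d (0.475%). After thinning the shares were 0.245% in control and 0.0173, 3.13, 1.74 and 0.542% at 7, 14, 28 and 60 d. Mural cells had 0 to 0.589% before thinning, so the fibroblast shares at 7 and 60 d are not above that background. Mural G2/M genes without Hmgb2 were at 73.3 CPM in control and 32.7, 49.0, 150 and 39.3 CPM at 7, 14, 28 and 60 d. Like the fibroblast total, the mural one was below control at 7 d and above it at 28 d. At 14 and 60 d it was below control, unlike the fibroblast total. Without the cycling barcodes, the log2 ratio of the whole list in fibroblasts was 0.18, 0.12, 0.28 and 0.18 at 7, 14, 28 and 60 d. Keratin RNA in fibroblast barcodes, carried at its ratio to member RNA in keratinocytes, would bring 19.4 CPM of G2/M genes in control and 11.9, 19.97, 22.7 and 22.4 CPM at 7, 14, 28 and 60 d. Its part in the G2/M totals of 34.2 to 187 CPM was not tested. The largest group of fibroblasts was in cluster 14 at 7 d (35.4%) and in cluster 0 in control (41.1%).

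T and NK cells had a higher G2/M level in each irradiated library, from small numbers and from a changing mix of cells. They numbered 79 in control and 100, 393, 904 and 222 at 7, 14, 28 and 60 d. Cluster 22, led by Ccl5, Gzmm and Nkg7, held 96 barcodes in control and 135, 208, 96 and 92 at those times, and cluster 23, led by Il17a and Icos, held 5 and 3, 340, 1397 and 174. Nkg7 had a UMI in 48.1% of gated barcodes in control and in 47.0, 36.9, 10.8 and 41.0% at those times. The part of this mix in the values was not tested. In T and NK cells the G2/M genes without Hmgb2 summed to 136 CPM in the control library and 811, 402, 385 and 351 CPM at 7, 14, 28 and 60 d (log2 ratio 2.57, 95% interval 2.14 to 3.03 at 7 d), and the S genes without Pcna to 177 CPM in the control library and 282, 232, 168 and 135 CPM at 7, 14, 28 and 60 d. Mki67 was at 27.3 CPM in the control library and 152, 80.2, 67.4 and 70.4 CPM at 7, 14, 28 and 60 d, from 76 UMIs at 7 d and 10 in control. Top2a was at 10.9 CPM in the control library and 77.9, 24.8, 44.3 and 41.5 CPM at 7, 14, 28 and 60 d. Both were above control at all 4 times. Hmgb2 was at 930.5 CPM in the control library and 1805, 1222, 739 and 714 CPM at 7, 14, 28 and 60 d, above control at 7 and 14 d and below it later. At 7 d 10 of 16 members with enough UMIs were at least 2-fold higher (background 12.4%), at 14 d 10 of 24 (15.2%), at 28 d 8 of 20 (15.1%) and at 60 d 4 of 10 (9.31%). The one member at least 2-fold lower was Mcm4 at 28 d, beside 3.16, 5.15, 11.6 and 16.1% of all genes at 7, 14, 28 and 60 d.

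Cycling T and NK barcodes were 1 of 79 in control (1.27%), 18 of 100 at 7 d (18.0%, 95% interval 11.0 to 26.9%), 21 of 393 at 14 d (5.34%), 21 of 904 at 28 d (2.32%) and 7 of 222 at 60 d (3.15%). Thinned, the shares were 1.27% in control and 6.45, 3.23, 4.52 and 2.38% at 7, 14, 28 and 60 d, with 0, 7, 52, 572 and 12 barcodes left out as too shallow. The 7 d share had the highest value in both counts. Keratin RNA in these barcodes would bring 22.3 CPM of G2/M genes in control and 18.1, 25.4, 47.2 and 25.4 CPM at 7, 14, 28 and 60 d, against measured totals of 136 CPM and 811, 402, 385 and 351 CPM.

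**Figure D5:**
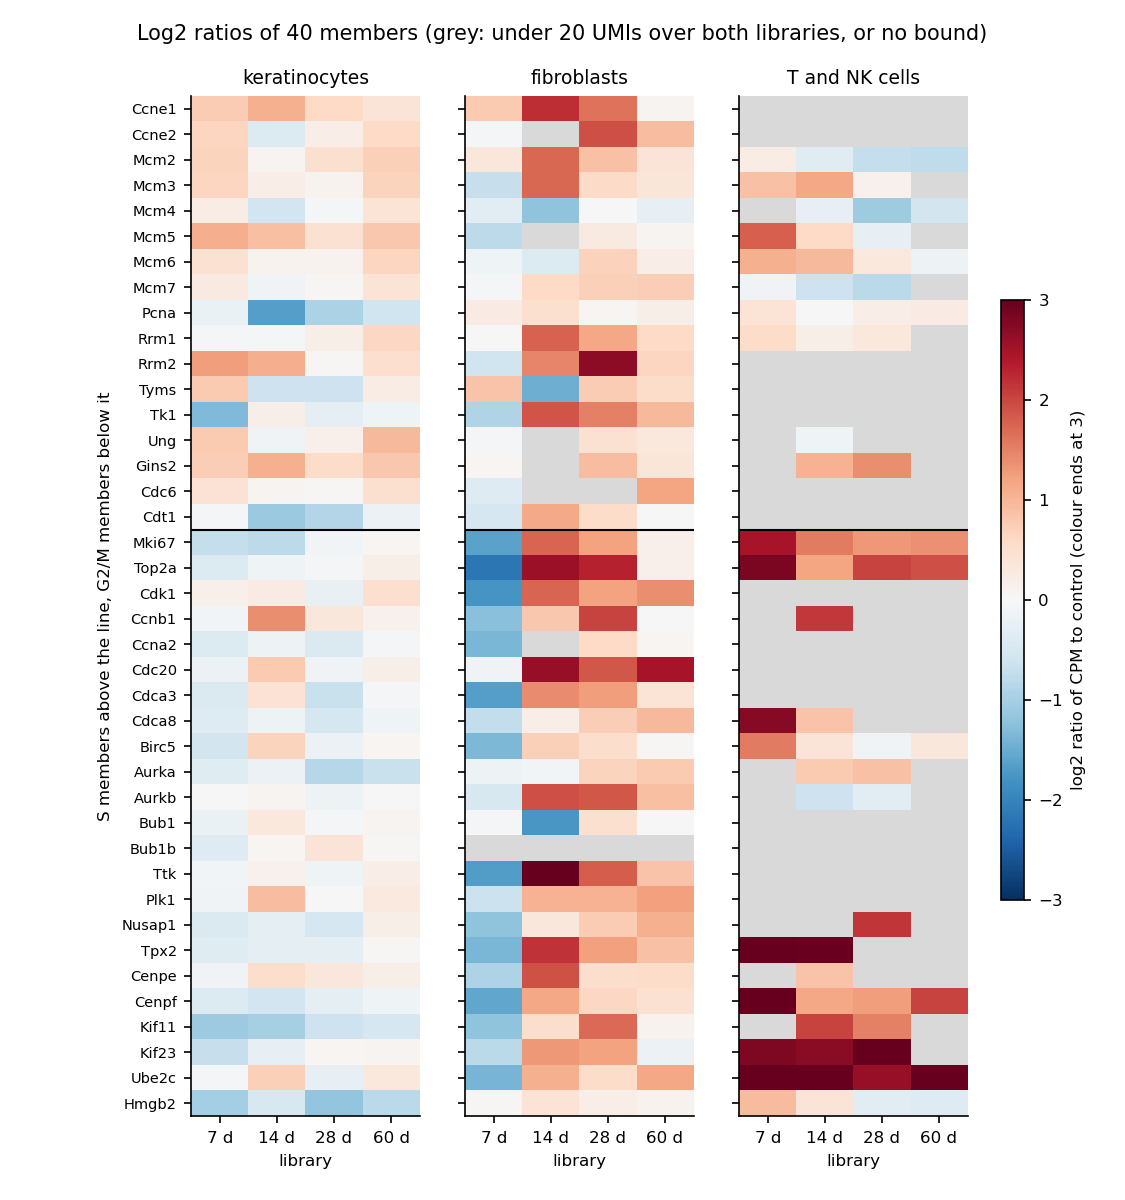
Log2 ratio of each irradiated library to control for each member in keratinocytes, fibroblasts and T and NK cells, with S genes and G2/M genes in blocks; the colour scale ends at 3 in both directions and grey marks members with under 20 UMIs over both libraries. In fibroblasts at 7 d the G2/M block is mostly below 0, with a median log2 ratio of -1.23, and at 14 and 28 d mostly above it, with medians of 1.11 and 1.12.

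The other classes had few or no cycling barcodes. Mononuclear phagocytes had shares of 3.47% in control and 4.32, 2.46, 2.85 and 0.980% at 7, 14, 28 and 60 d, and 7 of 25 members were at least 2-fold higher at 7 d (background 10.3%) and 0 at least 2-fold lower (4.13%). Their G2/M genes without Hmgb2 were at 112 CPM in control and 217, 112, 191 and 192 CPM at those times. The class differed in makeup: Cd207, a marker of Langerhans cells, had a UMI in 4.10% of its barcodes in control and in 10.4, 23.0, 74.1 and 39.2% at those times, and the macrophage receptor gene Mrc1 in 55.5% and 42.9, 15.6, 8.54 and 28.4%. Cluster 15, led by C1qc, held 271 barcodes in control and 328, 106, 205 and 49 later, and cluster 29, led by Cd207, held 35 and 15, 147, 695 and 61. The part of this in the G2/M level was not tested. Endothelial cells had 3 cycling barcodes of 134 in control, 0 of 210 at 7 d (which allows up to 1.43%), 2 of 215 at 14 d and 1 of 77 at 28 d. Their G2/M total was 139 CPM in control and 33.2, 66.7 and 314 CPM at 7, 14 and 28 d. In the 28 d value, Cenpf had 34 UMIs and Tpx2 14, each in 3.90% of the 77 barcodes. Schwann cells had no cycling ones among 83, 130, 97 and 113 barcodes in control and at 7, 14 and 28 d (up to 3.61, 2.31, 3.09 and 2.65%), and 1 of 111 at 60 d.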

How the data were processed

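Single cells of rat skin were measured with 10x 3' chemistry in 5 libraries, 1 per group. The deposited files hold raw UMI counts per gene and barcode, made by the authors with Cell Ranger 5.0.0, per the labels; the submitters' processing notes also name STAR, Seurat 3.1.1 and Rnor_6.0. Barcodes were kept from 500 UMIs and 300 genes upward, up to a mitochondrial share of 20%. Scrublet calls were removed, with the threshold 0.251 set by the other libraries in the 14 and 60 d libraries, where its own called under 0.5%. Classes came from marker gates set after clusters had been seen. Of gated barcodes 98.4% fell in a cluster with the same majority class and 4.69% lay near a cut. Barcodes gated as neutrophils include a cluster of 613 led by Acod1, Clec4e and Il1b, which stays unnamed as a type. Members and lists were chosen with earlier results of these data known.

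UMIs were summed per class and library and scaled to CPM. A 2-fold difference was counted among genes with at least 20 UMIs over both libraries. A class needed 50 barcodes per library. In keratinocytes, values in every library are given for Mki67, Top2a and the 5 S and 5 G2/M members with the highest mean. They are also given for the 3 highest and 3 lowest log2 ratios per time. The same was planned for the 3 highest and 3 lowest in fibroblasts and was done in part. Fibroblast levels of Top2a, Tyms, Bub1, Ccnb1, Kif23, Mcm2, Mcm4 and Plk1 are not given in every library. Others were named after their values were seen. Alternatives covered thresholds, filters, scaling, thinning, doublets, cluster-based classes and leaving out members. The 2-fold rule and the interval of the ratio were tested on simulated counts, in keratinocytes only. Those counts held counting error alone, so the test says nothing about spread between libraries. Scanpy 1.11.5, NumPy 2.4.6, SciPy 1.17.1 and pandas 2.3.3 were used in Python 3.11.15.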

Additional observations from a re-analysis of the deposited data

Results flagged for a closer look

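Some sums over the members lay above control at some times and below it at others within 1 class. In keratinocytes the log2 ratio of the list without Hmgb2 and Pcna was -0.15, 0.11, -0.12 and 0.19 for the 7, 14, 28 and 60 d libraries. Keratinocyte G2/M genes without Hmgb2 had log2 ratios of -0.35, 0.10, -0.20 and 0.070 at those times. In fibroblasts the list without Hmgb2 and Pcna had -0.50 at 7 d and 1.08, 1.03 and 0.55 at 14, 28 and 60 d, and the G2/M genes without Hmgb2 had -1.06, 1.39, 1.19 and 0.69. With 1 library per time the differences between times were not tested, and the 14 d fibroblast values rest on 81 barcodes.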

How the results depend on the processing

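No paired analysis was possible because each group has 1 library. Of the alternatives, 124 values kept their direction and size class, 57 moved and 6 turned direction; the cause was not tested. In keratinocytes, thinning gave whole-list log2 ratios of -0.38, 0.031, -0.28 and -0.16 at 7, 14, 28 and 60 d (14 d turned), leaving out Hmgb2 and Pcna gave -0.15, 0.11, -0.12 and 0.19 (14 and 60 d turned), scaling without mitochondrial and ribosomal genes gave -0.53, -0.26, -0.60 and -0.19 and 1 higher member at 60 d, and 1 shared cluster gave 0.89 at 7 d (turned). In fibroblasts, leaving out Hmgb2 and Pcna gave -0.50, 1.08, 1.03 and 0.55, leaving out cycling barcodes gave 0.18 (turned), 0.12, 0.28 and 0.18, classes taken from clusters gave -0.14, 0.46 and 0.24 at 7, 14 and 60 d, stricter filters gave 0.46 at 28 d, and thinning gave -0.045 at 7 d and 0.13 at 60 d. Basal cells of 1 cluster had 2.66 for G2/M (turned) and 1.66 for S genes at 7 d, basal and hair follicle cells together had -0.44 and 0.34, and thinning gave 0.69 for basal S genes. The cycling share of keratinocytes was 21.0% in control and 14.7, 35.5, 27.7 and 22.6% at 7, 14, 28 and 60 d from 1 UMI, 10.8% and 7.93, 16.7, 13.3 and 12.4% from 4 UMIs, and 4.63% and 3.40, 3.50, 5.53 and 5.48% thinned. The S to G2/M ratio was 0.317 in control and 0.596, 0.223, 0.335 and 0.388 thinned, 0.126 and 0.267, 0.159, 0.214 and 0.231 without Pcna, and 0.738 and 1.004, 0.843, 0.738 and 0.980 in the other lists. Keeping called doublets, or asking for 50 UMIs or 1 UMI in place of 20, changed none of the results they were run on by direction or by over 1.5 times. Counts limit the rarer cells, with 7 cycling of 2862 thinned control fibroblasts, 81 fibroblasts at 14 d and 1 cycling of 79 control T and NK barcodes.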

Other observations

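Kif23, a motor of the midbody, was found at 7, 14 and 28 d at a higher level than in control in T and NK barcodes with no UMI of Mki67 or Top2a. Its level there was 6.33 CPM in control (2 UMIs in 71 barcodes) and 64.8, 57.7, 81.8 and 8.97 CPM at 7, 14, 28 and 60 d (22 UMIs in 78 barcodes, 83 in 359, 128 in 848 and 7 in 208). In keratinocytes with no UMI of either gene it was at 4.82 CPM in control and 2.11, 4.51, 5.10 and 3.94 CPM at the same times, and in such fibroblasts at 2.51 CPM and 2.24, 5.48, 3.24 and 0.633 CPM. In mononuclear phagocytes with no UMI of either gene it was at 4.34 CPM in control and 10.3, 6.30, 10.2 and 3.39 CPM at those times. The plasmacytoid and B class, with no cycling barcode, had it at 8.53, 17.2 and 41.7 CPM at 7, 14 and 28 d, from 2, 27 and 8 UMIs. Kif23 was chosen here after its values were seen.

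Muscle progenitors, gated by Myf5 and other markers, had G2/M genes without Hmgb2 at 63.2 CPM at 7 d, with 0 of 148 barcodes cycling (which allows up to 2.03%), and at 536 CPM at 60 d, with 1 of 69 cycling. The 60 d level came in large part from few barcodes. Top2a had 17 UMIs and Nusap1 10, each in 1.45% of the 69 barcodes, and Ube2c had 29 in 2.90%. The 27 Mki67 UMIs were spread over 7.25%. Barcodes left out for more than 20% mitochondrial UMIs also held cycling ones, 4.45% in control and 2.31, 4.498, 3.45 and 7.25% at 7, 14, 28 and 60 d. Among barcodes called doublets, 21.2% were cycling in control and 2.58, 17.3, 12.7 and 20.3% at those times.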
